A study of Mus musculus with 11 samples.

Results

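The genes described here are 35 mouse genes of central carbon metabolism, of the mTOR kinase and of NAD and redox metabolism. They comprise 13 glycolytic enzymes (Hk1, Hk2, Gpi1, Pfkl, Pfkp, Pfkfb3, Aldoa, Tpi1, Gapdh, Pgk1, Pgam1, Eno1 and Pkm) and 3 genes that set the fate of pyruvate (Ldha, Ldhb and Pdk1). Hif1a and Myc encode transcription factors of glycolytic genes. Mtor, Rptor, Rictor, Rheb, Akt1 and Akt2 encode the mTOR kinase, its complex partners and its activators, whereas Tsc1, Tsc2, Deptor, Sesn1, Sesn3, Prkaa1 and Ddit4 encode its inhibitors and energy sensors. Nampt, Nmnat1, Sirt1 and Txnip stand for NAD synthesis, NAD use and redox control. Every open-chromatin peak whose centre lay nearest to an annotated start site of one of these genes was taken as a member, which gave 130 of 38509 peaks, at 32 of the 35 genes (14242 genes had a peak in all). Of these peaks, 39 lay within 1000 bases of a start site and are called promoter peaks, and 91 are called distal. None of the 130 was removed by the filter on low values.

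Open chromatin was measured by ATAC-seq, in which a transposase cuts accessible DNA. The CD4 T cells came fresh from mixed spleen and lymph node of untreated wildtype C57BL/6 Foxp3-GFP mice with a polyclonal receptor repertoire, and all 4 groups share this genotype. Anergic cells (3 libraries) were sorted as CD44high FOXP3– CD73high FR4high NRP1+, Treg cells (3 libraries) as FOXP3+ CD25+, Teff cells (3 libraries) as CD44high FOXP3– CD73low FR4low, and naive cells (2 libraries) as CD44low. Anergic and Teff cells thus share the CD44high FOXP3– gate and differ in CD73 and FR4, the proteins of Nt5e and Izumo1r. NRP1 is given only for the anergic gate. Whether the libraries of a group are from different animals is not stated, and neither is age. The p-values therefore weigh differences against the scatter of these libraries, which may be technical.

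Each value below is the authors' normalised signal in a peak, the number of reads multiplied by 1 factor per library. Reads in peaks numbered 14668425 to 68818591 per library, fewest in a Treg library, and 1 read was worth 0.527 to 2.13 units of signal, so a signal of 100 rests on many reads and a signal of a few units on a handful. Libraries of 1 group correlated at 0.973 to 0.986 and libraries of different groups at 0.752 to 0.934 (Pearson's r over peaks, as a description). At genes of the labelled subsets, a peak of Foxp3 and one of Nt5e, named after their values were seen, were highest in the group sorted for the protein. The peak 3.6 kb inside Foxp3 averaged 1331 in Treg cells, 131 in anergic, 31.1 in Teff and 11.6 in naive cells, and the peak 5.0 kb inside Nt5e averaged 592 in anergic, 266 in Treg, 134 in Teff and 32.9 in naive cells. The whole list of 10 such genes had 81 peaks. Of these, 18 were higher and 12 lower in anergic than in Teff cells (15.9% and 16.8% of all peaks were). In anergic over Treg, 13 were higher and 30 lower (19.4% and 14.8% of all). In Treg over Teff, 37 were higher and 11 lower (14.4% and 18.2% of all). In anergic cells, sorted as FOXP3–, the mean of the Foxp3 peak was above that of Teff cells. Lists for other cell types also moved with the groups. At 5 of 8 genes for CD8, NK and innate-like T cells there were 28 peaks, of which 1 was higher and 18 lower in anergic than in Teff cells (3.57% and 64.3%, against 15.9% and 16.8% of all peaks), and 2 higher and 19 lower in Treg than in Teff cells (7.14% and 67.9%, against 14.4% and 18.2%). The same list had 13 higher and 3 lower in anergic than in Treg cells (19.4% and 14.8% of all peaks were). In anergic over naive it had 13 higher and 4 lower (25.3% and 25.1% of all). In Teff over naive it had 17 higher and 3 lower (22.7% and 17.4% of all). Genes of this list moved in different directions. In Treg over Teff the 2 higher peaks were at Cd8b1 and Eomes, and the largest falls were at Zbtb16. In Teff over naive the largest rises were at Zbtb16 and the largest falls at Cd8b1 and Eomes. The summed signal of this list was 20988 to 26477 in anergic, 19545 to 24962 in Treg, 25455 to 29557 in Teff and 23939 to 24419 in naive libraries. At 4 of 8 B cell genes there were 9 peaks, 6 of them lower in anergic than in Treg cells (66.7%, against 14.8% of all peaks), and they summed to 1244 to 1562 in anergic, 2080.0 to 2350.0 in Treg, 872 to 983 in Teff and 1243 to 1301 in naive libraries. At 5 of 8 genes of myeloid and dendritic cells the sum was 8247 to 8602 in anergic, 6456 to 7447 in Treg, 6339.8 to 7729 in Teff and 6066 to 6641 in naive libraries, and at 3 of 7 genes of erythroid cells and platelets it was 4469 to 4849, 3201 to 3394, 3597 to 3850.3 and 4107 to 4232 in the same order of groups. The defining genes Cd8a, Ncr1 and Klrd1 had no peak, nor did Cd79a, Ms4a1 and Pax5 of B cells, Lyz2, Csf1r and Cd14 of myeloid cells or Gata1, Hbb-bs and Pf4 of erythroid cells and platelets. The part of such cells in the values below was not tested. In these bulk samples, fewer cells with an open site and less opening per cell cannot be told apart.

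Glycolysis breaks glucose down to pyruvate in the cytosol. Activated T cells raise it and turn much of the pyruvate into lactate, which regenerates the NAD that glycolysis consumes. The mTOR kinase, in a complex with Raptor (Rptor) or with Rictor, couples growth-factor and amino-acid signals to this program, partly through MYC and HIF-1α, and lack of mTOR activity at stimulation is a classical way to make T cells anergic in culture. NAD is mostly remade from nicotinamide by the salvage enzyme NAMPT. An accessible region near a gene may be a promoter or an enhancer, and accessibility is not a measure of the gene's RNA, which was not analysed here.

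The members did not move as a block. Anergic over Teff compares CD73high FR4high NRP1+ with CD73low FR4low cells. There 26 of 130 peaks were higher (20.0%, against 15.9% of all tested peaks) and 20 were lower (15.4%, against 16.8%). The gates of anergic and Treg cells differ in FOXP3 and in other markers. In anergic over Treg, 25 were higher (19.2%, against 19.4% of all) and 22 lower (16.9%, against 14.8%). Against naive cells, anergic cells had 34 higher peaks (26.2%, against 25.3%) and 33 lower (25.4%, against 25.1%). Most of these shares lay within a few percentage points of the share among all peaks, so the counts by themselves do not set the members apart.

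Treg cells had 25 peaks higher than Teff cells (19.2%, against 14.4% of all peaks) and 20 lower (15.4%, against 18.2%). Against naive cells, Treg cells had 34 higher (26.2%, against 22.3%) and 23 lower (17.7%, against 23.0%). Teff cells had 32 higher than naive cells (24.6%, against 22.7%) and 17 lower (13.1%, against 17.4%). Over all 4 groups, 84 of 130 members differed (64.6%, against 66.0% of all peaks). A call here is a Benjamini-Hochberg adjusted p under 0.05 over 38493 peaks in limma, and each group enters 3 of the 6 comparisons, so these are not independent. When values were scaled to the total reads in peaks, the anergic against Treg split became 22 higher and 30 lower and the Treg against naive split 39 higher and 16 lower. Without naive replicate 1, the peaks lower than in naive cells numbered 21 for anergic, 10 for Treg and 9 for Teff cells.

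**Figure D1:**
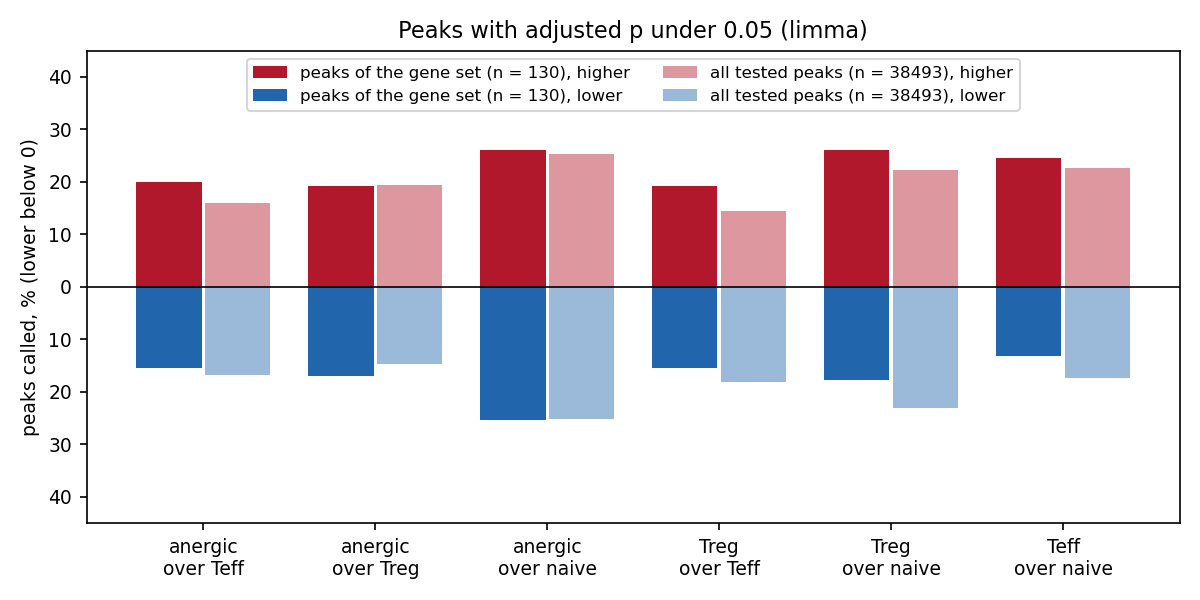
The share of peaks (%) called higher (red, above 0) and lower (blue, below 0) in each of the 6 comparisons by limma at adjusted p under 0.05, for the 130 peaks of the gene set (dark) and all 38493 tested peaks (pale). The dark and pale bars are closest in anergic over Treg higher (19.2% and 19.4%) and farthest apart in Treg over naive lower (17.7% and 23.0%).

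Main promoter peaks, where a gene had one, were open in all 4 groups, and distal peaks mostly had the wider ranges. A second Hif1a promoter peak was near the floor in naive cells, with 17 and 6 reads. Over the 4 groups 21 of 39 member promoter peaks differed (53.8%, against 51.7% of all promoter peaks), as did 63 of 91 distal ones (69.2%, against 73.1%). For 31 genes with a promoter peak, the highest group mean of the main promoter peak was a median 1.22 times the lowest, 25 of 31 ranged by less than 1.5 times and 2 by 2 times or more. With every one of the 39 member promoter peaks included, the median was 1.29 times and 6 reached 2 times. Distal member peaks had a median range of 2.33 times, and 49 of 91 reached 2 times. Over every promoter peak of the whole table the median was 1.34 times, and over every distal peak 2.22 times. The main promoter peaks of Nampt, Hif1a, Eno1, Gapdh, Tpi1, Pgam1, Pfkfb3, Rheb, Tsc1, Deptor, Sesn1, Sesn3, Prkaa1 and Akt1 had no call in any of the 6 comparisons.

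**Figure D2:**
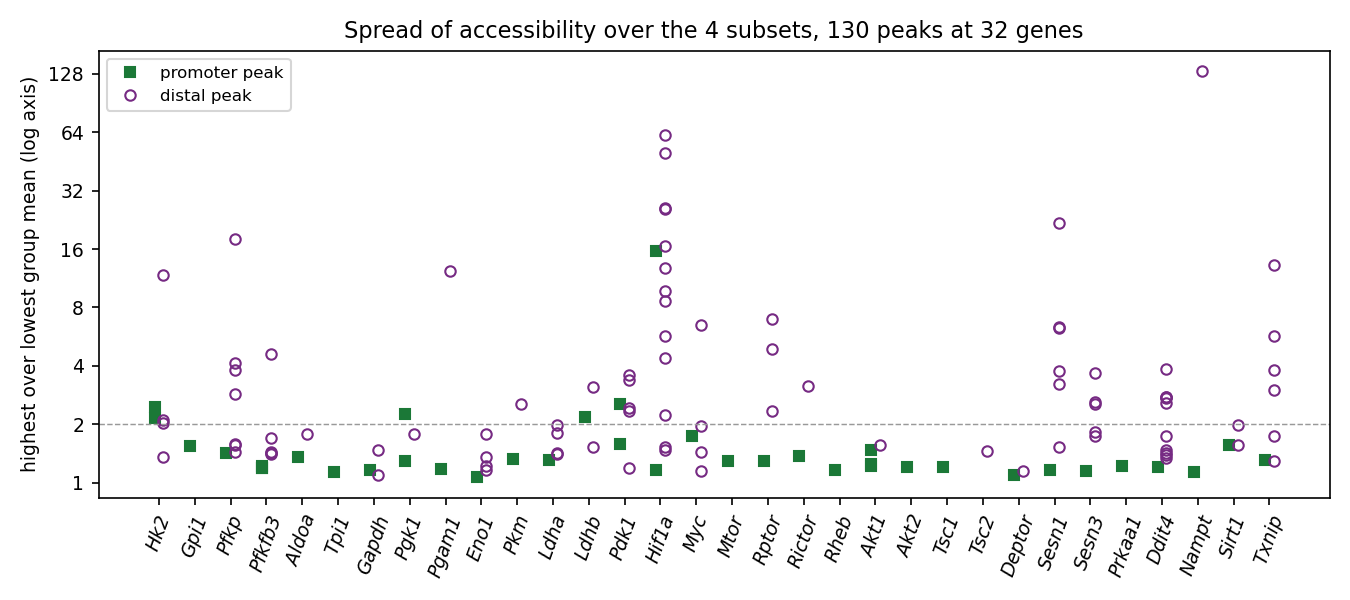
The highest group mean over the lowest (log axis) for each of the 130 peaks, by gene, with squares for promoter peaks, open circles for distal peaks and a dashed line at 2 times. Main promoter peaks crowd near 1 with a median of 1.22, distal peaks reach 132 times at Nampt, where the naive mean rests on 18 reads and 1 read, and the 1 promoter square far above 2 is the second Hif1a promoter peak.

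**Figure D3:**
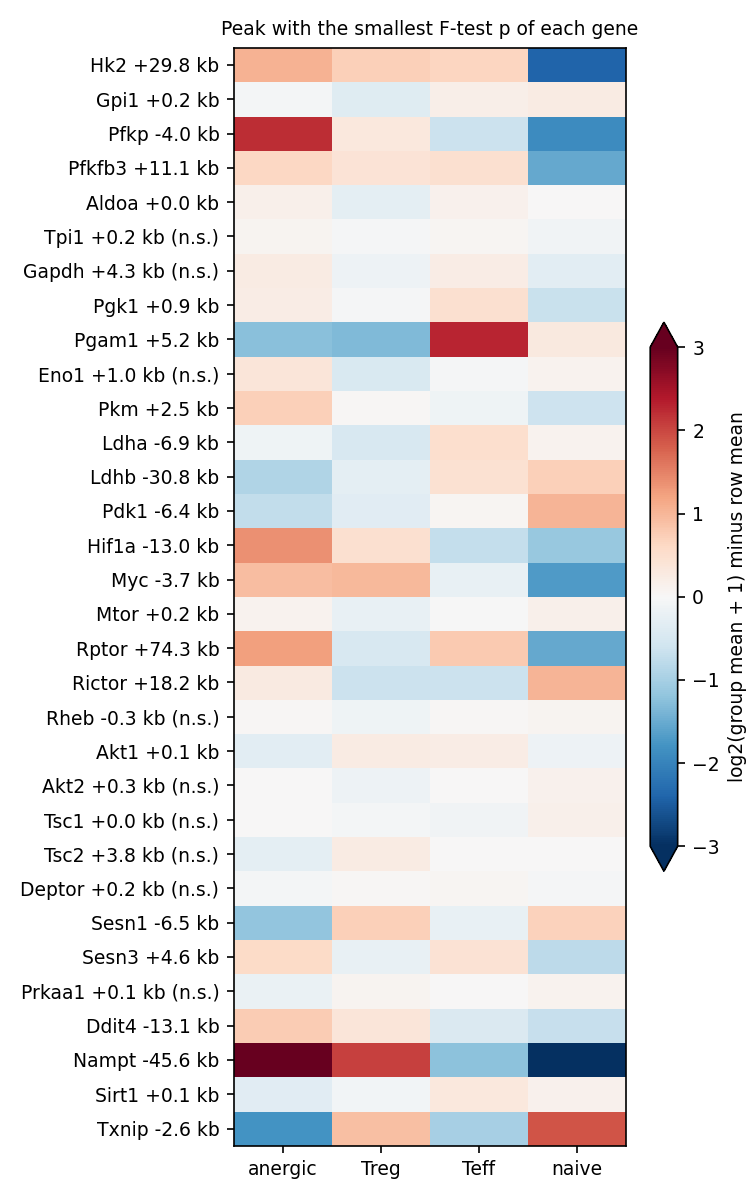
For each of the 32 genes, the peak with the smallest p over the 4 groups, as log2(group mean + 1) minus the mean of its row, with groups in columns and the distance from the start site in kb beside the gene name (n.s., adjusted p of the F test not under 0.05). Nampt is highest in anergic cells and lowest in naive cells, Pgam1 is highest in Teff cells, and Txnip is lowest in anergic cells.

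Hif1a, the oxygen-regulated subunit of HIF-1, had 15 peaks, the most of any member. Of the 15, 12 were higher in anergic than in Teff cells (15.9% of all peaks were), 12 higher in anergic than in naive cells (25.3% of all) and 6 higher in anergic than in Treg cells (19.4% of all). Treg cells had 12 higher than Teff cells (14.4% of all) and 12 higher than naive cells (22.3% of all), and Teff cells had 10 higher than naive cells (22.7% of all). No Hif1a peak was lower in any of these 6 comparisons. The median log2 fold change over the 15 was 1.91 for anergic over Teff, 0.34 for anergic over Treg, 3.34 for anergic over naive, 1.46 for Treg over Teff, 3.01 for Treg over naive and 1.19 for Teff over naive. Over all tested peaks these medians lay within 0.05 of 0. Group means ran anergic, Treg, Teff, naive from high to low at 10 of the 15 peaks, and Treg was highest at 3 others. The 6 peaks higher in anergic than in Treg cells became 3 without Treg replicate 1.

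**Figure D4:**
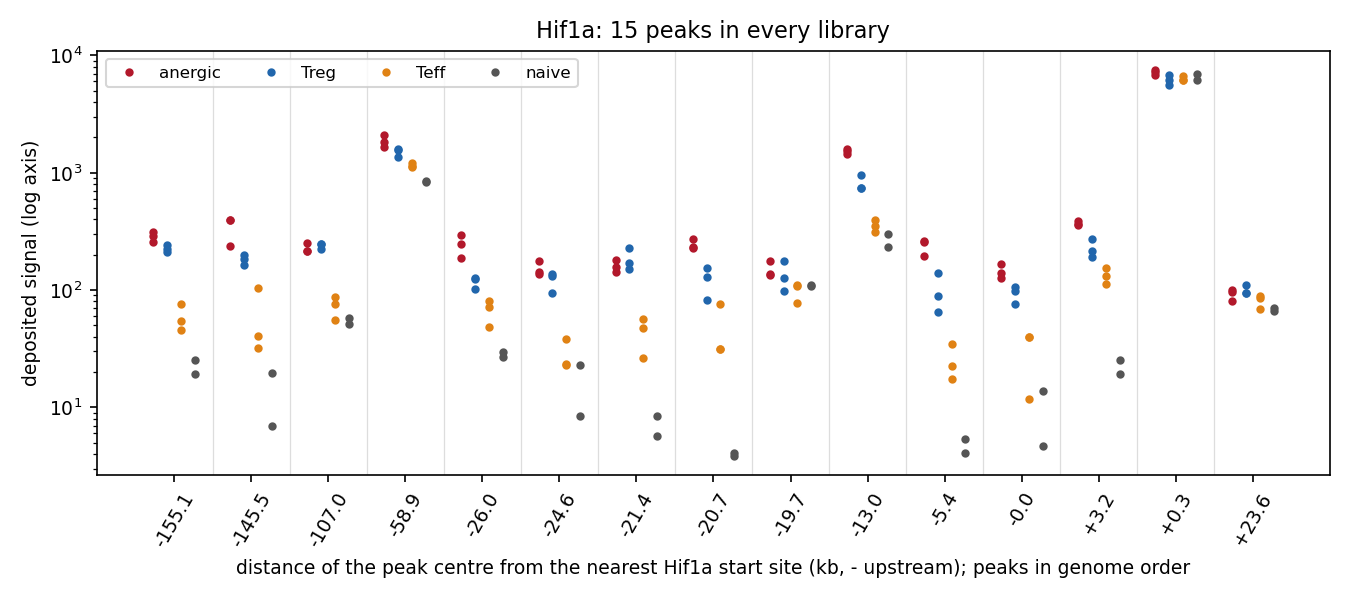
Signal (log axis) at the 15 Hif1a peaks, with 1 point per library coloured by group and the distance of the peak from its nearest Hif1a start site in kb on the horizontal axis. Group means of the main promoter peak lie between 6188 and 7216, and 12 of the other 14 peaks are higher in anergic than in Teff cells.

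The Hif1a peak with the smallest p over the 4 groups lay 13.0 kb upstream of the nearer of 2 Hif1a start sites (chr12:73887907-73888738, GRCm38/mm10, intergenic). Distances of the upstream Hif1a elements are counted from this start site, which lies in the weaker promoter peak, not the main one. Signal at the 13.0 kb element was 1583, 1438 and 1539 in anergic, 739.9, 737 and 957 in Treg, 314, 351 and 395 in Teff and 231 and 300.4 in naive libraries. Anergic libraries lay above Treg libraries, and Treg libraries above Teff and naive libraries, with no overlap. The log2 fold change was 2.11 ± 0.15, adjusted p = 9.5e-10 for anergic over Teff, 0.92 ± 0.15, adjusted p = 5.7e-05 for anergic over Treg and 2.52 ± 0.16, adjusted p = 2.3e-11 for anergic over naive (± SE here and below). A smaller element 5.4 kb upstream (chr12:73895746-73896092) held 257, 259.9 and 196 in anergic, 65.3, 89.4 and 141 in Treg, 17.3, 22.3 and 35.002 in Teff and 4.06 and 5.42 in naive libraries. It was near the floor in naive cells, with 5 and 7 reads, and its log2 fold change was 3.25 ± 0.37, adjusted p = 5.4e-07 for anergic over Teff and 5.38 ± 0.41, adjusted p = 3.2e-10 for anergic over naive. The call for anergic over Treg at this element (1.32 ± 0.37, adjusted p = 0.008) was lost without Treg replicate 1 (adjusted p up to 0.056).

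An upstream pair 20.7 and 21.4 kb from the same Hif1a start site was also close to closed in naive cells. At 20.7 kb (chr12:73880452-73880718) the signal was 229, 273 and 231 in anergic, 82.2, 153 and 129 in Treg, 31.2, 31.4 and 76.7 in Teff and 4.06 and 3.87 in naive libraries. The naive values rest on 5 reads in each library. The log2 fold change was 2.50 ± 0.35, adjusted p = 9.9e-06 for anergic over Teff and 4.58 ± 0.40, adjusted p = 5.1e-09 for Treg over naive. At 21.4 kb the means were 159 ± 18.2 in anergic, 183 ± 39.3 in Treg, 43.6 ± 15.6 in Teff and 7.10 ± 2.00 in naive cells (SD, n = 3, or 2 for naive cells, here and below). Both Treg and anergic cells were above Teff cells (1.91 ± 0.32, adjusted p = 7.3e-05 for anergic over Teff, 2.09 ± 0.32, adjusted p = 3.4e-05 for Treg over Teff). The farthest peaks nearest to Hif1a, 145.5 and 155.1 kb upstream, lie inside introns of Prkch, the gene of a protein kinase C, so their assignment to Hif1a rests on distance alone. The main Hif1a promoter peak had 7216 ± 345 in anergic, 6188 ± 625 in Treg, 6336 ± 287 in Teff and 6577 ± 486 in naive cells, and it passed no test. A second, weaker promoter peak, at the Hif1a start site used for these distances, did differ. It had 144 ± 20.0 in anergic, 93.2 ± 15.5 in Treg, 30.5 ± 16.2 in Teff and 9.23 ± 6.48 in naive cells and a log2 fold change of 2.38 ± 0.44, adjusted p = 1.9e-04 for anergic over Teff.

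The central bases of the 13.0 kb element (chr12:73888172-73888471) and of the 20.7 kb element (chr12:73880452-73880718) are printed because, among Hif1a peaks, the first has the smallest p over the 4 groups and the second the largest fold change of anergic over naive cells (5.62 on the log2 scale). Both are on the plus strand, the strand of Hif1a, read from the GRCm38 reference. Capitals mark a match to a searched motif, here an AP-1 site (TGANTCA), the letters bound by BATF with JUN proteins and by FOS with JUN proteins. The first window holds none of the searched letters.
Hif1a 13.0 kb upstream: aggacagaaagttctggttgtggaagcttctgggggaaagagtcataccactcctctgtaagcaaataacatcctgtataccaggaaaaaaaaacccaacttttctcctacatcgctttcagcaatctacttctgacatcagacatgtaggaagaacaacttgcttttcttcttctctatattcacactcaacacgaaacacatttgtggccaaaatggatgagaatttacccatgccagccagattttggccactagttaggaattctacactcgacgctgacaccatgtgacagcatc
Hif1a 20.7 kb upstream: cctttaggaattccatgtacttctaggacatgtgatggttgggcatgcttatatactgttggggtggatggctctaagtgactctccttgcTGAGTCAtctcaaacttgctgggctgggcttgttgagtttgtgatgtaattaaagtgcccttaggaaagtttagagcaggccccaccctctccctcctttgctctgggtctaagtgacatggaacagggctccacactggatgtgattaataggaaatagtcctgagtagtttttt

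Myc, which drives growth and glucose use in activated T cells, split by element. Its promoter peak (chr15:61984384-61985903) held 783, 980.0 and 1121 in anergic, 1724, 1669 and 1600.4 in Treg, 1112, 1251 and 1148 in Teff and 1684 and 1671 in naive libraries. The promoter was lower in anergic than in Treg cells (log2 fold change -0.81 ± 0.12, adjusted p = 3.2e-05) and than in naive cells (-0.82 ± 0.14, adjusted p = 2.9e-05), and higher in Treg than in Teff cells (0.51 ± 0.12, adjusted p = 0.0028). The peak 3.7 kb upstream (chr15:61981505-61981854) followed another order, with 328, 269 and 221 in anergic, 279, 311 and 258 in Treg, 133, 88.4 and 148 in Teff and 43.9 and 43.4 in naive libraries. There anergic cells were above Teff (1.16 ± 0.22, adjusted p = 3.1e-04) and naive cells (2.60 ± 0.25, adjusted p = 1.2e-08), and Treg cells were above the same groups (1.22 ± 0.22, adjusted p = 2.2e-04 over Teff, 2.67 ± 0.25, adjusted p = 1.7e-08 over naive). Anergic cells thus had the lowest mean at the Myc promoter and, with Treg cells, the highest at the upstream peak. The whole pair of transcription factor genes had 20 peaks, of which 13 were higher and 0 lower in anergic than in Teff cells (65.0% and 0%, against 15.9% and 16.8% of all peaks). Hif1a held 12 of these 13, and 1 peak was lower with scaling to total reads in peaks or without anergic replicate 3. In Treg over Teff, 14 of the 20 were higher and 0 lower (against 14.4% and 18.2% of all peaks).

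The widest range of any member peak was at Nampt, the rate-limiting enzyme of NAD salvage. A peak 45.6 kb upstream of its start site (chr12:32774450-32775106, intergenic) had 892, 1069 and 1094 in anergic, 580.0, 424 and 536 in Treg, 43.6, 58.6 and 53.3 in Teff and 14.6 and 0.774 in naive libraries. The naive values stand for 18 reads and 1 read. Anergic and Treg libraries lay well above every Teff library, and every Teff library above both naive libraries. The log2 fold change was 4.27 ± 0.44, adjusted p = 1.9e-07 for anergic over Teff and 3.28 ± 0.44, adjusted p = 7.3e-06 for Treg over Teff. Over naive cells it was 7.59 ± 0.50, adjusted p = 2.7e-11 for anergic cells and 3.32 ± 0.50, adjusted p = 1.4e-05 for Teff cells. Anergic over Treg did not pass (0.99 ± 0.44, adjusted p = 0.088), although the 3 anergic libraries lay above the 3 Treg libraries. All 5 calls of this peak held in each of the 18 alternatives, but the size over naive cells depended on the naive library. Without naive replicate 1 it was 9.16 for anergic, 8.17 for Treg and 4.89 for Teff cells, and without naive replicate 2 it was 6.02, 5.03 and 1.75. With scaling to total reads in peaks it was 4.60 for anergic and 1.04 for Teff cells. The Nampt promoter peak had 8545 ± 474 in anergic, 7634 ± 737 in Treg, 7545 ± 436 in Teff and 7846 ± 78.6 in naive cells, with no call.

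The central 300 bases of the Nampt element (chr12:32774628-32774927, plus strand, the strand of Nampt) are printed because they show the largest difference among all members. Capitals mark matches to the hypoxia response core (ACGTG on either strand) and the E-box bound by MYC with MAX (CACGTG, which contains that core on both strands).
Nampt 45.6 kb upstream: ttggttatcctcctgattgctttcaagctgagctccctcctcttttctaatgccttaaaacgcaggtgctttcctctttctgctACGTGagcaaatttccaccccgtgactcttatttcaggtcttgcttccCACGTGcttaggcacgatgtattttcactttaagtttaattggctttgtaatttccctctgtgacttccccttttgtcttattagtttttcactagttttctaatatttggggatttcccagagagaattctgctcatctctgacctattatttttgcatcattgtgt

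Txnip had its highest signal in naive cells. Its protein binds thioredoxin and restrains glucose uptake. The mean was highest in naive cells at each of its 7 peaks and lowest in anergic cells at 6 of the 7. The peak 2.6 kb upstream (chr3:96555141-96555530) had 39.8, 23.2 and 30.2 in anergic, 146, 241 and 225 in Treg, 32.5, 61.1 and 68.3 in Teff and 403 and 415 in naive libraries. Anergic and Teff libraries were low and Treg and naive libraries high, with no overlap between these pairs of groups. Its log2 fold change was -2.68 ± 0.30, adjusted p = 8.4e-07 for anergic over Treg and -3.71 ± 0.34, adjusted p = 4.9e-09 for anergic over naive. It was 1.93 ± 0.30, adjusted p = 3.7e-05 for Treg over Teff and -2.97 ± 0.34, adjusted p = 3.2e-07 for Teff over naive. Anergic over Teff did not pass (-0.74 ± 0.30, adjusted p = 0.063). A weaker peak in the 3′ UTR had 29.8, 20.0 and 18.1 in anergic, 84.5, 80.9 and 68.4 in Treg, 38.1, 44.6 and 100.006 in Teff and 130.0 and 129 in naive libraries. Signal there was lower in anergic than in Treg (-1.76 ± 0.36, adjusted p = 6.9e-04) and naive cells (-2.50 ± 0.40, adjusted p = 1.8e-05). The promoter peak averaged 3611 ± 158 in anergic, 3702 ± 377 in Treg, 3499 ± 204 in Teff and 4586 ± 232 in naive cells. Its calls for anergic and Teff over naive were lost without naive replicate 1 (adjusted p of 0.11 and 0.078). Its call for Treg over naive was lost with scaling to total reads in peaks or without Treg replicate 2 or naive replicate 1 (adjusted p up to 0.18). The central 300 bases of the upstream peak (chr3:96555185-96555484, plus strand, the strand of Txnip) hold 1 hypoxia response core, in capitals.
Txnip 2.6 kb upstream: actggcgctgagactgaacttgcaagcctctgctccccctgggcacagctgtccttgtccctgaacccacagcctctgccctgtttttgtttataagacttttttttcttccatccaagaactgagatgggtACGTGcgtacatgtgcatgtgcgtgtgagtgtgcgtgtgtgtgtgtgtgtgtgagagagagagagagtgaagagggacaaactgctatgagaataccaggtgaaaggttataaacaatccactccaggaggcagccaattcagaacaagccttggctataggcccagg

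Sirt1, an NAD-dependent deacetylase, had a promoter peak (chr10:63338299-63339664) of 2038, 2129 and 2268 in anergic, 2421, 2403 and 2808 in Treg, 3211, 3649 and 3232 in Teff and 2678 and 3213 in naive libraries. It was lower in anergic than in Teff cells (-0.65 ± 0.10, adjusted p = 3.7e-05) and lower in Treg than in Teff cells (-0.40 ± 0.10, adjusted p = 0.0044), without overlap of libraries. Anergic over naive (-0.45 ± 0.12, adjusted p = 0.0022) was lost without naive replicate 2, at an adjusted p of 0.083. In fold terms these promoter differences are small beside those of the distal Nampt and Txnip peaks. The distal Sirt1 peaks instead had their highest means in anergic cells, with ranges of 1.99 and 1.56 times over the 4 groups. Of the 3 Sirt1 peaks, 1 was higher and 1 lower in anergic than in Teff cells (15.9% and 16.8% of all peaks were).

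**Figure D5:**
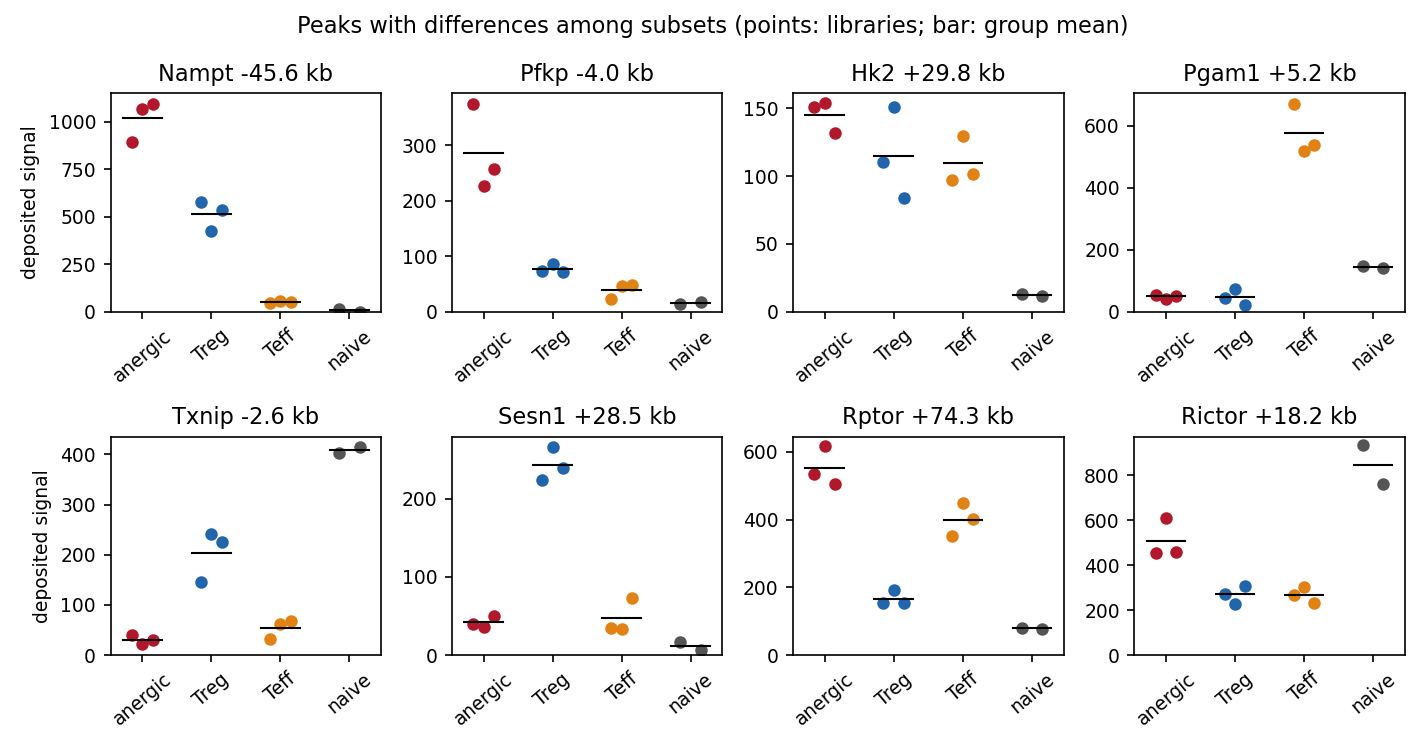
Deposited signal (linear axes from 0) in each library (points) with the group mean (bar) at 8 distal peaks, with groups ordered anergic, Treg, Teff and naive. The order of groups differs from gene to gene: Pfkp is high in anergic libraries, Pgam1 in Teff libraries, Sesn1 in Treg libraries and Txnip in naive libraries, and Hk2 is low in naive libraries.

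Among the 41 peaks of glycolytic enzymes, 9 were higher and 0 lower in anergic than in Treg cells (22.0% and 0%, against 19.4% and 14.8% of all peaks), although 1 lower call appeared with scaling to total reads in peaks, with the replicate block and without anergic replicate 2. Against naive cells, 12 were higher and 2 lower in anergic cells (29.3% and 4.88%, against 25.3% and 25.1% of all peaks), and 13 were higher and 2 lower in Teff cells (31.7% and 4.88%, against 22.7% and 17.4%). Those 2 lower became 4 for anergic cells without anergic replicate 3, and 1 for Teff cells without Teff replicate 3 or either naive library. For anergic over Teff, the counts were 5 higher and 2 lower (12.2% and 4.88%, against 15.9% and 16.8%). The shares of higher peaks in these 3 comparisons with anergic cells lay within 4 percentage points of those of all peaks. The 5 became 3 without anergic replicate 1, anergic replicate 3 or Teff replicate 3, and the 2 became 1 without anergic replicates 1 or 3, Teff replicates 1 or 2 or either naive library. Median log2 fold changes over the 41 peaks were 0.03 for anergic over Teff, 0.20 for anergic over Treg and 0.15 for anergic over naive, while those over all peaks lay within 0.05 of 0. In Treg over Teff, 1 of the 41 was higher and 8 lower (14.4% and 18.2% of all peaks were). Against naive cells, Treg cells had 13 higher and 8 lower (22.3% and 23.0% of all). Under the alternatives that 1 ranged from 0 to 3, and the 8 lower than in naive cells from 5 to 10.

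Hk2 encodes the hexokinase that T cells induce on activation. Of its 6 peaks, 5 were higher and 0 lower in anergic than in naive cells (25.3% and 25.1% of all peaks were). A distal Hk2 peak instead had its highest mean in naive cells, 1.36 times that of Treg cells. The Hk2 promoter peak (chr6:82774241-82774902) had 1043, 1263 and 1065 in anergic, 801, 905 and 996 in Treg, 962, 1189 and 1213 in Teff and 484 and 555 in naive libraries. All 9 libraries of the other groups lay above both naive libraries, with log2 fold changes of 1.11 ± 0.15, adjusted p = 1.5e-06 for anergic over naive, 0.79 ± 0.15, adjusted p = 1.6e-04 for Treg over naive and 1.10 ± 0.15, adjusted p = 3.2e-06 for Teff over naive. An intronic peak 29.8 kb downstream of the start (chr6:82744469-82744764) went further, with 151, 154 and 132 in anergic, 110.4, 151 and 83.6 in Treg, 96.9, 129.7 and 102 in Teff and 13.0 and 11.6 in naive libraries. Here the log2 fold change was 3.46 ± 0.31, adjusted p = 3.8e-09 for anergic over naive, 3.08 ± 0.31, adjusted p = 4.2e-08 for Treg over naive and 3.04 ± 0.31, adjusted p = 6.2e-08 for Teff over naive, and the 3 other groups did not pass a test among themselves. The Hk2 promoter was 1 of only 2 main promoter peaks with a range of 2 times or more, the other being that of Ldhb. The intronic element (chr6:82744469-82744764, printed on the minus strand, the strand of Hk2) holds none of the searched letters.
Hk2 29.8 kb downstream: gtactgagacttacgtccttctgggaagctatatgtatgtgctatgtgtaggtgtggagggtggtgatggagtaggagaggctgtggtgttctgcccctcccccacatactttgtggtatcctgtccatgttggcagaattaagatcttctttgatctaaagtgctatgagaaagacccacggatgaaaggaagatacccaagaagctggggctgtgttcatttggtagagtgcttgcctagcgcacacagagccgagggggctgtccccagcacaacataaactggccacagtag

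Pfkp encodes the platelet form of phosphofructokinase, the committed step of glycolysis. Its peak 4.0 kb upstream (chr13:6652575-6652978) had 375, 226 and 257 in anergic, 73.2, 85.1 and 70.9 in Treg, 23.5, 45.4 and 48.3 in Teff and 13.8 and 17.8 in naive libraries. The 3 anergic libraries lay above all 8 others, with log2 fold changes of 2.87 ± 0.32, adjusted p = 4.5e-07 over Teff, 1.86 ± 0.32, adjusted p = 1.2e-04 over Treg and 4.07 ± 0.36, adjusted p = 3.0e-09 over naive. Treg over naive was also called (2.21 ± 0.36, adjusted p = 3.1e-05). A peak in a Pfkp intron 13.4 kb downstream was instead highest in Teff cells, with 77.9, 93.3 and 75.9 in anergic, 34.9, 53.2 and 36.7 in Treg, 147, 158 and 115 in Teff and 33.3 and 34.1 in naive libraries. It was higher in Teff than in naive cells (2.01 ± 0.32, adjusted p = 3.1e-05) and lower in Treg than in Teff cells (-1.74 ± 0.29, adjusted p = 7.8e-05). The Pfkp promoter peak averaged 2348 ± 133 in anergic, 1708 ± 165 in Treg, 2214 ± 88.3 in Teff and 2418 ± 27.998 in naive cells. It was higher in anergic than in Treg cells (0.46 ± 0.10, adjusted p = 0.0013) and lower in Treg than in Teff (-0.38 ± 0.10, adjusted p = 0.0061) and naive cells (-0.51 ± 0.11, adjusted p = 8.9e-04). The upstream element (chr13:6652626-6652925, minus strand, the strand of Pfkp) is printed as the glycolytic peak with the largest excess in anergic cells, and it holds none of the searched letters.
Pfkp 4.0 kb upstream: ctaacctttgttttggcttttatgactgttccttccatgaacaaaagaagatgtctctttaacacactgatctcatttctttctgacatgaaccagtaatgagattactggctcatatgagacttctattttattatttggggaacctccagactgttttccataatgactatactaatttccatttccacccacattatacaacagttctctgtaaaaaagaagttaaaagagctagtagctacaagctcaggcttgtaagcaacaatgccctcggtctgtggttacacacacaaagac

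Pgam1, a phosphoglycerate mutase, had a peak with its highest signal in Teff libraries. Its peak 5.2 kb downstream of the start, in an intron, had 54.7, 40.6 and 51.7 in anergic, 42.8, 74.5 and 22.8 in Treg, 671, 519 and 538 in Teff and 148 and 142 in naive libraries. All 3 Teff libraries lay above every other library. It was lower in anergic than in Teff cells (-3.53 ± 0.31, adjusted p = 1.7e-08) and lower in Treg than in Teff cells (-3.74 ± 0.31, adjusted p = 9.2e-09). It was also lower in anergic than in naive cells (-1.55 ± 0.34, adjusted p = 6.0e-04) and higher in Teff than in naive cells (1.98 ± 0.34, adjusted p = 7.8e-05). These calls held in every alternative tried, while the Pgam1 promoter peak averaged 4569 ± 403 in anergic, 4024 ± 528 in Treg, 4267 ± 122 in Teff and 4707 ± 282 in naive cells with no call.

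Pkm, the pyruvate kinase gene, had a peak 2.5 kb downstream of its start (chr9:59659391-59660062) of 1525, 1668 and 1618 in anergic, 1068, 913 and 1007 in Treg, 890.3, 933 and 860.1 in Teff and 608 and 657 in naive libraries. All 3 anergic libraries lay above the others, with log2 fold changes of 0.84 ± 0.11, adjusted p = 4.9e-06 over Teff, 0.69 ± 0.11, adjusted p = 7.3e-05 over Treg and 1.34 ± 0.13, adjusted p = 8.8e-09 over naive. The Pkm promoter peak went the other way against naive cells, with means of 5945 ± 413 in anergic, 5239 ± 177 in Treg, 5758 ± 132 in Teff and 6903 ± 162 in naive cells. It had a log2 fold change of -0.40 ± 0.09, adjusted p = 0.0012 for Treg over naive.

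Aldoa, which splits fructose bisphosphate, had a promoter peak of 6069.8, 6080.1 and 6134 in anergic, 4698, 4308 and 4462 in Treg, 5922, 6225 and 5730.4 in Teff and 5504 and 5489 in naive libraries. Treg libraries were lowest, with log2 fold changes of 0.44 ± 0.08, adjusted p = 2.2e-04 for anergic over Treg and -0.41 ± 0.08, adjusted p = 4.5e-04 for Treg over Teff. Gpi1, the isomerase of the glycolytic entry, had a promoter peak averaging 1250.1 ± 300.3 in anergic, 1010.0 ± 87.3 in Treg, 1457 ± 199.8 in Teff and 1553 ± 74.9 in naive cells. Its signal was lower in Treg than in naive cells (-0.62 ± 0.17, adjusted p = 0.0046). Pfkfb3 makes the sugar phosphate that activates phosphofructokinase. Its promoter peak averaged 1566 ± 205 in anergic, 1439.6 ± 39.8 in Treg, 1690.1 ± 184 in Teff and 1717 ± 102 in naive cells with no call. An intronic peak 11.1 kb downstream was lower in naive libraries, with 99.5, 101 and 86.0 in anergic, 58.6, 126 and 63.3 in Treg, 72.0, 90.8 and 98.3 in Teff and 22.7 and 18.6 in naive libraries. That peak was higher than in naive cells in anergic (2.16 ± 0.35, adjusted p = 2.2e-05), Treg (1.87 ± 0.35, adjusted p = 1.8e-04) and Teff cells (2.02 ± 0.35, adjusted p = 8.6e-05).

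Few peaks of the remaining glycolytic genes were called. Gapdh, the dehydrogenase that makes NADH in glycolysis, had 4695 ± 125 in anergic, 4061 ± 392 in Treg, 4677 ± 69.5 in Teff and 4623 ± 33.6 in naive cells at its main promoter peak. The peak of Gapdh with the smallest p over the 4 groups, in its 3′ UTR, had 318 ± 62.4 in anergic, 241 ± 73.1 in Treg, 312 ± 73.3 in Teff and 216 ± 1.60 in naive cells. Neither Gapdh peak was called in any comparison. Tpi1 had 824 ± 131 in anergic, 769 ± 49.8 in Treg, 814 ± 24.5 in Teff and 730.0 ± 59.2 in naive cells, at its only peak. Eno1, the enolase, had 3606 ± 262 in anergic, 3539.8 ± 303 in Treg, 3389.9 ± 185 in Teff and 3418 ± 381 in naive cells. No comparison called the Tpi1 peak or this Eno1 promoter peak. An intronic Eno1 peak averaged 91.4 ± 8.52 in anergic, 51.3 ± 12.6 in Treg, 68.8 ± 24.6 in Teff and 75.6 ± 16.03 in naive cells. Its call for anergic over Treg (0.85 ± 0.31, adjusted p = 0.041) was lost under edgeR, with scaling to total reads in peaks or without anergic replicates 1, 2 or 3 or Treg replicates 1 or 3 (adjusted p up to 0.16). Pgk1, which makes ATP, averaged 2588 ± 247 in anergic, 2191 ± 148 in Treg, 2583 ± 118 in Teff and 2839.8 ± 51.4 in naive cells at its promoter peak. There the call for Treg over naive (-0.38 ± 0.11, adjusted p = 0.0081) was lost with scaling to total reads in peaks or without naive replicate 1 (adjusted p up to 0.081). A second Pgk1 peak 0.9 kb downstream averaged 143 ± 23.7 in anergic, 119 ± 9.78 in Treg, 172 ± 17.4 in Teff and 76.2 ± 25.6 in naive cells. It was higher in Teff than in naive cells (1.20 ± 0.26, adjusted p = 7.8e-04).

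Ldha, Ldhb and Pdk1 help to decide whether pyruvate becomes lactate or is oxidised in mitochondria. Of their 15 peaks, 7 were lower and 0 higher in anergic than in Teff cells (46.7% and 0%, against 16.8% and 15.9% of all peaks), although 1 was higher with the replicate block or without anergic replicate 3. The median log2 fold change of the 15 was −0.50, against −0.00069 over all peaks. Of the same 15, 2 were lower and 0 higher in anergic than in Treg cells (13.3% and 0%, against 14.8% and 19.4%). The 2 became 4 under edgeR, 5 with scaling to total reads in peaks and 1 without anergic replicate 3 or Treg replicate 2. Against naive cells, 8 were lower and 1 higher in anergic cells (53.3% and 6.67%, against 25.1% and 25.3%). The 8 became 4 without naive replicate 1, and the 1 became 0 without naive replicate 2. Treg cells had 6 lower and 1 higher than naive cells (23.0% and 22.3% of all peaks were). Teff cells had 4 lower and 0 higher than naive cells (17.4% and 22.7% of all). Without naive replicate 1 the 6 became 3 and the 4 became 2. In Treg over Teff, 3 were lower and 1 higher (18.2% and 14.4% of all), and the 3 became 1 without Treg replicate 1 or Teff replicate 2.

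Pdk1 encodes a kinase that inhibits pyruvate dehydrogenase. Its promoter peak (chr2:71872661-71874037) had 3926, 3902 and 4581 in anergic, 4674, 3753 and 4413 in Treg, 4831, 5023 and 4412 in Teff and 6420.2 and 6600.4 in naive libraries. Both naive libraries lay above all others. The log2 fold change was -0.66 ± 0.11, adjusted p = 2.7e-05 for anergic over naive, -0.61 ± 0.11, adjusted p = 1.0e-04 for Treg over naive and -0.46 ± 0.11, adjusted p = 0.002 for Teff over naive. A peak 6.4 kb upstream had 129, 229.8 and 126 in anergic, 208, 224 and 214 in Treg, 346, 267 and 242 in Teff and 670.3 and 426 in naive libraries. Its log2 fold change was -0.86 ± 0.22, adjusted p = 0.0049 for anergic over Teff and -1.78 ± 0.25, adjusted p = 3.5e-06 for anergic over naive. At both Pdk1 peaks the means ran naive, Teff, Treg, anergic from high to low.

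Ldhb, the lactate dehydrogenase subunit of oxidative tissues, had a promoter peak of 613, 552 and 422 in anergic, 518, 513 and 447 in Treg, 445, 467 and 322 in Teff and 1018 and 768 in naive libraries. It was lower than in naive cells in Treg (-0.85 ± 0.19, adjusted p = 0.001) and Teff cells (-1.12 ± 0.19, adjusted p = 6.4e-05). The same call for anergic cells (-0.76 ± 0.19, adjusted p = 0.0021) was lost without naive replicate 1 (adjusted p up to 0.07). A peak 30.8 kb upstream of Ldhb averaged 48.8 ± 10.4 in anergic, 75.4 ± 2.76 in Treg, 127 ± 9.97 in Teff and 152 ± 12.5 in naive cells. This upstream peak was lower in anergic than in Teff (-1.38 ± 0.25, adjusted p = 1.7e-04) and naive cells (-1.64 ± 0.28, adjusted p = 4.1e-05). Ldha, the subunit that favours lactate, had a promoter peak averaging 2857 ± 478 in anergic, 2657 ± 151 in Treg, 3487 ± 247 in Teff and 3135 ± 304 in naive cells. Its call for anergic over Teff (-0.30 ± 0.11, adjusted p = 0.047) was lost in a fit of the 2 groups alone or without anergic replicate 1, Treg replicates 1 or 3, Teff replicates 1, 2 or 3 or naive replicate 2 (adjusted p up to 0.31). Its peak 6.9 kb upstream had 335, 426 and 361 in anergic, 298, 251 and 332 in Treg, 641, 533 and 573 in Teff and 453 and 431 in naive libraries. Ldha signal there was lower in anergic (-0.64 ± 0.15, adjusted p = 0.0024) and in Treg cells (-0.99 ± 0.15, adjusted p = 3.9e-05) than in Teff cells.

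Mtor, the kinase gene itself, had a single peak (chr4:148448199-148449280) of 4105, 4349 and 4137 in anergic, 3303, 3225 and 3602 in Treg, 3924, 3980.0 and 3714 in Teff and 4456 and 4259 in naive libraries. It was higher in anergic than in Treg cells (0.31 ± 0.09, adjusted p = 0.0072). Its call for Treg over naive (-0.37 ± 0.10, adjusted p = 0.0034) was lost without naive replicate 1 (adjusted p up to 0.054). Rheb, the GTPase that switches on the Raptor complex, had 1 peak averaging 9444 ± 691 in anergic, 8408 ± 1283 in Treg, 9419 ± 601 in Teff and 9752 ± 622 in naive cells with no call. Akt1 and Akt2 encode kinases that relieve the TSC brake on Rheb. Akt2 averaged 4834 ± 177 in anergic, 4339 ± 427 in Treg, 4821 ± 252 in Teff and 5224 ± 329 in naive cells at its only peak. The call for Treg over naive (-0.27 ± 0.10, adjusted p = 0.034) was lost under edgeR, under DESeq2, with scaling to total reads in peaks, in a fit of the 2 groups alone or without Treg replicate 2 or naive replicates 1 or 2 (adjusted p up to 0.31). The main Akt1 promoter peak averaged 883 ± 164 in anergic, 754 ± 115 in Treg, 856 ± 60.03 in Teff and 917 ± 15.8 in naive cells with no call, and a second Akt1 promoter peak averaged 408 ± 41.5 in anergic, 602 ± 80.6 in Treg, 587 ± 76.1 in Teff and 451 ± 143 in naive cells. At that second peak the call for anergic over Teff (-0.52 ± 0.17, adjusted p = 0.021) was lost without anergic replicate 1 or Teff replicates 2 or 3 (adjusted p up to 0.09). Its call for anergic over Treg (-0.56 ± 0.17, adjusted p = 0.014) was lost without anergic replicate 1 or Treg replicate 2 (adjusted p up to 0.076).

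Rptor, whose protein defines the amino-acid-responsive mTOR complex, held intronic elements of differing order. At 74.3 kb into the gene (chr11:119676883-119677437) the signal was 534, 617 and 505 in anergic, 154, 194 and 153 in Treg, 351, 448 and 402 in Teff and 81.2 and 77.4 in naive libraries. Anergic and Teff libraries were high, and the log2 fold change was 1.72 ± 0.17, adjusted p = 2.0e-07 for anergic over Treg and 2.78 ± 0.19, adjusted p = 7.3e-11 for anergic over naive. It was -1.26 ± 0.17, adjusted p = 8.6e-06 for Treg over Teff and 2.31 ± 0.19, adjusted p = 3.4e-09 for Teff over naive. Anergic over Teff (0.46 ± 0.17, adjusted p = 0.043) was lost with scaling to total reads in peaks or without anergic replicates 1, 2 or 3 or Teff replicates 1 or 3 (adjusted p up to 0.18). At 41.5 kb (chr11:119644205-119644535) the signal was 41.4, 50.6 and 39.6 in anergic, 99.1, 63.9 and 132 in Treg, 202, 211 and 188 in Teff and 258 and 169.6 in naive libraries. Anergic libraries were lowest, with log2 fold changes of -2.17 ± 0.27, adjusted p = 1.6e-06 over Teff, -1.09 ± 0.27, adjusted p = 0.0032 over Treg and -2.24 ± 0.30, adjusted p = 1.5e-06 over naive. Treg cells were lower than Teff cells (-1.08 ± 0.27, adjusted p = 0.0035). The Rptor promoter peak averaged 1034 ± 38.1 in anergic, 865 ± 57.2 in Treg, 802 ± 38.02 in Teff and 1041 ± 16.4 in naive cells. Its call for anergic over Teff (0.37 ± 0.11, adjusted p = 0.015) was lost without anergic replicate 3 or Teff replicate 2 (adjusted p up to 0.056). Its call for Teff over naive (-0.38 ± 0.13, adjusted p = 0.021) was lost without Teff replicates 2 or 3 or naive replicates 1 or 2 (adjusted p up to 0.12). The 74.3 kb element (chr11:119677010-119677309, plus strand, the strand of Rptor) holds 1 AP-1 match, in capitals.
Rptor 74.3 kb downstream: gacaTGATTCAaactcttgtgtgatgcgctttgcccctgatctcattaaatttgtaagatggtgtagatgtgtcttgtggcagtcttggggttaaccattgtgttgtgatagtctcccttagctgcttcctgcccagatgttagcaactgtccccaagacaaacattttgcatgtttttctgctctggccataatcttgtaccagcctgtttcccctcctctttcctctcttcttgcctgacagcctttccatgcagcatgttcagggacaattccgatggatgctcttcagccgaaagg

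Rictor defines the other mTOR complex, which acts on AKT. Its intronic peak 18.2 kb downstream of the start (chr15:6726346-6726849) had 456, 611 and 459 in anergic, 271, 229.9 and 309 in Treg, 268, 305 and 232 in Teff and 936 and 761 in naive libraries. Anergic cells lay between naive cells and the other groups: higher than Teff (0.92 ± 0.17, adjusted p = 2.0e-04) and Treg cells (0.91 ± 0.17, adjusted p = 3.0e-04). Treg cells were lower than naive cells (-1.65 ± 0.19, adjusted p = 3.4e-07), as were Teff cells (-1.66 ± 0.19, adjusted p = 3.6e-07). Anergic over naive (-0.74 ± 0.19, adjusted p = 0.0023) was lost without naive replicate 1 (adjusted p up to 0.058). At the Rictor promoter peak the means were 1967 ± 278 in anergic, 2271 ± 217 in Treg, 2390.1 ± 99.998 in Teff and 2694 ± 171 in naive cells. There the call for anergic over naive (-0.46 ± 0.12, adjusted p = 0.0032) was lost without naive replicate 2 (adjusted p up to 0.051). The call for anergic over Teff there (-0.29 ± 0.11, adjusted p = 0.047) was lost in a fit of the 2 groups alone or without anergic replicates 1 or 2, Treg replicate 3, Teff replicates 1, 2 or 3 or naive replicates 1 or 2 (adjusted p up to 0.16).

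Inhibitors and energy sensors of mTOR had 29 peaks. Of them, 3 were higher and 5 lower in anergic than in Teff cells (10.3% and 17.2%, against 15.9% and 16.8% of all peaks). In anergic over Treg, 5 were higher and 10 lower (17.2% and 34.5%, against 19.4% and 14.8%). In Treg over Teff, 7 were higher and 5 lower (24.1% and 17.2%, against 14.4% and 18.2%). Several of these shares lay near those of all peaks. The 5 higher in anergic than in Treg cells became 3 without Treg replicate 1 and 3 with scaling to total reads in peaks. The 5 lower in Treg than in Teff cells became 3 with scaling to total reads in peaks and 1 to 3 without any 1 of the Treg libraries or of Teff replicates 1 and 2.

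Sesn1, a stress-induced sestrin that restrains the Raptor complex, had the element with its widest range of group means 28.5 kb downstream of the start in an intron (chr10:41839009-41839149). The signal there was 39.8, 36.4 and 50.4 in anergic, 224, 266 and 239 in Treg, 34.6, 33.9 and 73.3 in Teff and 16.2 and 6.19 in naive libraries. The 3 Treg libraries lay above all 8 others. The log2 fold change was -2.51 ± 0.38, adjusted p = 2.8e-05 for anergic over Treg and 2.43 ± 0.38, adjusted p = 3.6e-05 for Treg over Teff. It was 4.45 ± 0.42, adjusted p = 1.9e-08 for Treg over naive and 1.94 ± 0.42, adjusted p = 5.1e-04 for anergic over naive. Without naive replicate 1 these were 5.08 and 2.57, and without naive replicate 2 they were 3.82 and 1.31. At a peak 6.5 kb upstream of a start site (chr10:41880772-41881094) the signal was 121, 197 and 148 in anergic, 458, 598 and 703 in Treg, 280.4, 278 and 352 in Teff and 574 and 566 in naive libraries. It was lowest in anergic libraries, with -0.98 ± 0.19, adjusted p = 3.2e-04 for anergic over Teff, -1.92 ± 0.19, adjusted p = 1.8e-07 for anergic over Treg and -1.90 ± 0.21, adjusted p = 1.3e-07 for anergic over naive. Another intronic peak averaged 16.3 ± 12.9 in anergic, 104 ± 41.4 in Treg, 42.2 ± 30.4 in Teff and 68.5 ± 52.1 in naive cells. Its signal was lower in anergic than in Treg cells (-2.96 ± 0.71, adjusted p = 0.0028, with −3.56 without anergic replicate 1 and −2.06 without anergic replicate 2). A further distal Sesn1 peak had its highest mean in anergic cells, 6.26 times that of naive cells. Of the 7 Sesn1 peaks, 1 was higher and 2 lower in anergic than in Teff cells (15.9% and 16.8% of all peaks were). In anergic over Treg, 1 was higher and 4 lower (19.4% and 14.8% of all). The Sesn1 promoter peak averaged 2285 ± 434 in anergic, 2271 ± 156 in Treg, 2635 ± 149.9 in Teff and 2563 ± 39.9 in naive cells with no call. The whole peak at 28.5 kb (chr10:41839009-41839149, plus strand, the strand of Sesn1) is 141 bases long and holds none of the searched letters.
Sesn1 28.5 kb downstream: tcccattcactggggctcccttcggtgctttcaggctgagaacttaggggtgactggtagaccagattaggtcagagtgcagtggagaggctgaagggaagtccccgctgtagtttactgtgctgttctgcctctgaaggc

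Sesn3, the sestrin gene kept active by FOXO factors, had the strongest promoter of all members, with 10523, 11058 and 11102 in anergic, 10166, 9021 and 11027 in Treg, 9857, 10507 and 10056 in Teff and 11409.5 and 11785 in naive libraries and no call. Its intronic peak 4.6 kb downstream averaged 373 ± 71.6 in anergic, 212 ± 47.7 in Treg, 336 ± 52.9 in Teff and 143 ± 5.20 in naive cells. It was higher in anergic than in Treg (0.82 ± 0.20, adjusted p = 0.003) and naive cells (1.36 ± 0.22, adjusted p = 2.2e-05) and higher in Teff than in naive cells (1.21 ± 0.22, adjusted p = 1.4e-04). Another distal Sesn3 peak had its highest mean in Teff cells, 3.65 times that of anergic cells, the lowest. Of the 6 Sesn3 peaks, 1 was higher and 2 lower in anergic than in Teff cells (15.9% and 16.8% of all peaks were). Ddit4, a stress-induced inhibitor of the Raptor complex, had 11 peaks. At 13.1 kb upstream (chr10:59964411-59965293) the signal was 1675, 1231 and 1255 in anergic, 1052, 945 and 1191 in Treg, 612, 627 and 573 in Teff and 542 and 474 in naive libraries. It was higher in anergic than in Teff (1.18 ± 0.14, adjusted p = 7.1e-07) and naive cells (1.44 ± 0.15, adjusted p = 5.7e-08) and higher in Treg than in Teff cells (0.81 ± 0.14, adjusted p = 9.5e-05). At 19.0 kb downstream it was 77.9, 61.7 and 69.9 in anergic, 139, 140.5 and 98.8 in Treg, 287, 244 and 278 in Teff and 124 and 130.1 in naive libraries. It was highest in the 3 Teff libraries and lower in anergic than in Teff (-1.94 ± 0.22, adjusted p = 5.0e-07), Treg (-0.83 ± 0.22, adjusted p = 0.0053) and naive cells (-0.86 ± 0.24, adjusted p = 0.005). At 18.1 kb upstream the means were 79.4 ± 12.6 in anergic, 149 ± 24.9 in Treg, 66.0 ± 16.05 in Teff and 182 ± 5.64 in naive cells. There signal was lower in anergic than in Treg cells (-0.90 ± 0.25, adjusted p = 0.0086) and higher in Treg than in Teff cells (1.18 ± 0.25, adjusted p = 0.001). The Ddit4 promoter peak averaged 6587 ± 66.0 in anergic, 5467 ± 126 in Treg, 5718 ± 295 in Teff and 6398 ± 188 in naive cells. Its call for anergic over Treg (0.27 ± 0.08, adjusted p = 0.012) was lost with scaling to total reads in peaks (adjusted p up to 0.085). Its call for Treg over naive (-0.23 ± 0.09, adjusted p = 0.041) was lost under edgeR, under DESeq2, with scaling to total reads in peaks, in a fit of the 2 groups alone, with the replicate block or without Treg replicate 1, Teff replicate 1 or naive replicates 1 or 2 (adjusted p up to 0.52).

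Tsc1, Prkaa1 and Deptor showed no call. Tsc1, part of the complex that switches Rheb off, averaged 3574 ± 379.8 in anergic, 3381 ± 438 in Treg, 3251 ± 187 in Teff and 3917 ± 102 in naive cells. Prkaa1, a catalytic subunit of AMP-activated kinase, averaged 1100.0 ± 176 in anergic, 1321 ± 115 in Treg, 1271 ± 100.5 in Teff and 1338 ± 21.1 in naive cells. Deptor, which binds and inhibits mTOR, averaged 1164 ± 207 in anergic, 1247 ± 108 in Treg, 1275 ± 62.9 in Teff and 1192 ± 138 in naive cells at a promoter peak that also lay within 1000 bases of a start site of Gm9920. Tsc2 had 1 member peak, 3.8 kb inside the gene, averaging 68.2 ± 5.56 in anergic, 99.5 ± 35.9 in Treg, 84.9 ± 41.8 in Teff and 84.8 ± 0.473 in naive cells with no call.

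Hk1, Pfkl and Nmnat1 had no member peak. The peaks at the Hk1 and Nmnat1 start sites were nearer to a neighbour, and no peak lay at the Pfkl start site. The Hk1 start site lay in a peak given to Hk1os with 7104 ± 325 in anergic, 5152 ± 498 in Treg, 6716 ± 430.2 in Teff and 6737 ± 276 in naive cells. It was lower in Treg than in Teff (-0.39 ± 0.09, adjusted p = 0.0019) and naive cells (-0.39 ± 0.10, adjusted p = 0.0027) and higher in anergic than in Treg cells (0.47 ± 0.09, adjusted p = 3.5e-04). The Nmnat1 start site lay in a peak given to Lzic, with 961 ± 54.9 in anergic, 801 ± 57.1 in Treg, 811 ± 8.98 in Teff and 912 ± 3.04 in naive cells and no call. For Pfkl the nearest peak was 24826 bases away, given to Cfap410, with 305 ± 53.9 in anergic, 327 ± 51.1 in Treg, 312 ± 8.50 in Teff and 346 ± 1.68 in naive cells and no call. The Tsc2 start site lay in a peak given to Nthl1, with 387 ± 31.8 in anergic, 364 ± 43.7 in Treg, 484 ± 78.6 in Teff and 596 ± 38.3 in naive cells. This peak was lower in anergic (-0.62 ± 0.17, adjusted p = 0.0047) and Treg cells (-0.72 ± 0.17, adjusted p = 0.002) than in naive cells. A Sesn1 start site lay in a peak given to Cep57l1, with 4021 ± 864 in anergic, 3363 ± 132 in Treg, 3801 ± 238 in Teff and 5104 ± 196 in naive cells. It was lower than in naive cells in anergic (-0.37 ± 0.13, adjusted p = 0.026), Treg (-0.60 ± 0.13, adjusted p = 8.9e-04) and Teff cells (-0.43 ± 0.13, adjusted p = 0.014). A peak shared by neighbouring start sites cannot be ascribed to either gene.

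Other genes of the same pathways gave further contrasts. Of 40 peaks at 21 of 28 other glycolysis and pyruvate genes, 8 were higher and 2 lower in anergic than in Teff cells (20.0% and 5.00%, against 15.9% and 16.8% of all peaks). Bpgm, which makes bisphosphoglycerate, had a peak 16.8 kb upstream with 120.3 ± 22.0 in anergic cells, against 13.9 ± 19.8 in Teff cells (log2 fold change 4.08 ± 0.90, adjusted p = 0.0011). At Pdp1, a phosphatase that reactivates pyruvate dehydrogenase, a peak 77.8 kb downstream of the start had 159 ± 20.2 in anergic cells, against 29.1 ± 6.71 in Teff cells (log2 fold change 2.42 ± 0.38, adjusted p = 3.7e-05). In the opposite direction, an intronic peak of Hk3, a hexokinase of myeloid cells, 2.4 kb downstream of the start had 345 ± 80.6 in Treg cells, against 665 ± 181 in Teff cells (log2 fold change -0.94 ± 0.24, adjusted p = 0.0042).

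Of 127 peaks at 45 of 49 other mTOR, PI3K and AMPK genes, 13 were higher and 30 lower in anergic than in Teff cells (10.2% and 23.6%, against 15.9% and 16.8% of all peaks), and 10 were higher and 30 lower in Treg than in Teff cells (7.87% and 23.6%, against 14.4% and 18.2%). Sgk1, a kinase downstream of the Rictor complex, had a peak 31.6 kb from a start site with 464 ± 81.1 in anergic cells, against 115 ± 28.3 in Teff cells (log2 fold change 2.01 ± 0.29, adjusted p = 1.1e-05). Pik3r5, a regulatory subunit of PI3-kinase γ, had intronic peaks of the other order, the strongest contrast being 4.4 kb downstream with 115 ± 10.7 in anergic cells, against 666 ± 133 in Teff cells (log2 fold change -2.51 ± 0.19, adjusted p = 3.2e-09). Pik3ip1, which restrains PI3-kinase at the T cell surface, had a peak 2.2 kb upstream, inside Gm12592, with 88.6 ± 8.70 in anergic cells, against 1000.5 ± 199 in naive cells (log2 fold change -3.47 ± 0.24, adjusted p = 5.2e-11).

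Of 34 peaks at 14 of 21 other NAD genes, 2 were higher and 7 lower in anergic than in Teff cells (5.88% and 20.6%, against 15.9% and 16.8% of all peaks). Bst1, an enzyme that consumes NAD, had an intronic peak with 51.3 ± 6.27 in anergic cells, against 908 ± 297 in Teff cells (log2 fold change -4.07 ± 0.26, adjusted p = 3.7e-10). Parp1, which uses NAD to mark damaged DNA sites, had a peak 22.6 kb upstream with 203 ± 43.2 in Treg cells, against 85.6 ± 23.7 in naive cells (log2 fold change 1.24 ± 0.25, adjusted p = 3.2e-04). Of 79 peaks at 25 of 26 other HIF, MYC and thioredoxin genes, 4 were higher and 13 lower in anergic than in Teff cells (5.06% and 16.5%, against 15.9% and 16.8%), and 12 higher and 16 lower in anergic than in Treg cells (15.2% and 20.3%, against 19.4% and 14.8%). Median log2 fold changes for anergic over Teff were 0.06 for glycolysis and pyruvate, −0.05 for mTOR, PI3K and AMPK, −0.03 for NAD and −0.05 for HIF, MYC and thioredoxin genes. The calls printed here for 8 peaks of these lists held under each of the 18 alternatives. The Hk3 and Parp1 peaks were also called for anergic over Teff, and each of those calls was lost under 4 of the 18.

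Motif letters were counted in the central 300 bases of each peak, on both strands, as a description of sequence. Among the 39 member promoter windows, the E-box CACGTG stood in 17.9% (Wilson 95% interval 8.98 to 32.7%, against 8.69% of all promoter windows) and the hypoxia response core ACGTG in 35.9% (22.7 to 51.6%, against 25.3%). The FOXO letters GTAAACA stood in 7.69% (against 2.28%), the NRF1 letters CGCATGCG in 2.56% (against 2.30%), and the AP-1 letters TGANTCA and CRE letters TGACGTCA in 0 of 39 (against 4.83% and 2.30%). All E-boxes contain the core, and median GC content was 64.7% in both sets. In the 91 distal member windows, AP-1 letters stood in 13.2% (7.71 to 21.6%, against 15.3% of all distal windows), the E-box in 10.99% (against 7.63%), the core in 20.9% (against 21.0%), FOXO in 4.40% (against 4.89%), NRF1 in 1.10% (against 0.374%) and CRE in 0 of 91 (against 0.974%). At Hif1a, 3 of 15 windows held AP-1 letters. These intervals cover counting error only, and matched letters do not show that a factor was bound.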

How the data were processed

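ATAC-seq libraries from 11 sorted samples were analysed in 38509 consensus peaks. Per the labels' design text, reads were trimmed (Trimmomatic 0.38.1), aligned to mm10 (Bowtie2 2.3.3.1), sorted (SAMtools 1.13) and called as peaks per sample without PCR duplicates, mitochondrial reads or blacklisted regions and with transposase cut-site adjustment (Genrich 0.5), and DiffBind 2.10.0 made the consensus. The deposited values are normalised signal per peak. Each column is whole reads times 1 constant factor per library (100% of values whole within 0.01), and how the authors set the factor is not given in the sources used here. Starts were raised by 1 to count from 1.

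Each peak was given to the gene whose RefSeq GRCm38 start site (NM or NR transcripts) lay nearest to its centre. limma 3.58.1 (R 4.3.3, trend) was fitted to log2(signal + 1) over all 11 libraries, so fold changes are on that scale and understate those of low peaks. The filter on low values left 38493 peaks and removed 16, and p-values were Benjamini-Hochberg adjusted over all of them. The procedure was tested on simulated data. The recovered reads were also tested with edgeR 4.0.16 and DESeq2 1.42.0. Among 18 alternatives were other scalings, pseudocount 10, no filter, fits of only the 2 groups compared, a replicate block and leaving out each library. Peaks described by value are each gene's main promoter peak, its peak with the smallest p over the 4 groups, and the 3 largest non-overlapping rises and falls of each comparison. A few others were named after their values were seen. They are the second Hif1a promoter peak, further distal peaks of Sirt1, Sesn1, Sesn3 and Hk2, and the marker peaks. The genes, the other pathway lists and the marker lists were chosen with earlier results of these data known. Some items are not reported here.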

Additional observations from a re-analysis of the deposited data

How the results depend on the processing

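Of 173 called values at 63 described peaks, 128 were called under each of the 18 alternatives, 45 were lost under at least 1 and none was reversed. Of the 173, 46 moved by over 1.5 times with scaling to total reads in peaks and 20 with pseudocount 10, both of which weigh the pseudocount more in low peaks. Leaving out 1 library at a time, the member peaks lower than in naive cells ranged from 21 to 34 for anergic, 10 to 26 for Treg and 9 to 19 for Teff cells, each lowest without naive replicate 1. The other counts of member peaks stayed within 1.5 times. Scaling to total reads in peaks moved the median of all peaks by −0.12 for anergic over Treg and 0.15 for Treg over naive (log2). The share of higher among called member peaks moved to 42.3% for anergic over Treg, against 53.2% with the deposited scaling, and to 70.9% for Treg over naive, against 59.6%. Under edgeR, 2 of the other NAD peaks were lower in anergic than in Treg cells, against 1 under limma. In 500-base windows the hypoxia response core stood in 56.4% of member promoters (37.1% of all promoters) and the E-box in 30.8% (13.2% of all).

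Whether replicate numbers pair the samples is not stated. Deviations of same-numbered libraries from their group means correlated at −0.11 to 0.16 over 15 pairs and those of differently numbered ones at −0.22 to 0.19. With 2 or 3 libraries in a group these deviations depend on each other, so the ranges cannot decide whether the numbers pair samples. With the replicate block, 27 member peaks were higher and 23 lower in anergic over Teff, 27 and 23 in anergic over Treg, 35 and 33 in anergic over naive, 26 and 21 in Treg over Teff, 35 and 25 in Treg over naive, and 32 and 21 in Teff over naive, and 83 differed over the 4 groups. With 2 naive libraries and no statement of animals, comparisons with naive cells are the least certain. Reads in peaks numbered 14668425 to 29740722 in Treg libraries and 20907364 to 68818591 in the other libraries, and peaks of a few reads carry wide counting error.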
